A study of Caenorhabditis elegans with 2 samples.

Results

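The genes described here are the small nuclear RNA (snRNA) genes of Caenorhabditis elegans apart from those of the spliced leaders, and the measurement is the peak signal of the transcription factor HLH-12 at each of them. They were taken as every nuclear gene of biotype snRNA in the Ensembl annotation of WBcel235, the assembly also called ce11, leaving out genes whose names begin with sls-1. or sls-2., which encode spliced leader RNAs. This gave 99 genes, of 129 nuclear snRNA genes and of 46890 nuclear genes in all. The data are chromatin immunoprecipitation sequencing (ChIP-seq) of whole young adult hermaphrodites of strain OP538, genotype unc-119(tm4063) III; wgIs538, collected 64 h after synchronization as starved first-stage larvae. The transgene wgIs538 expresses HLH-12 fused to a C-terminal GFP-FLAG tag, and the DNA was recovered with an antibody against GFP. There were 2 biological replicates of this 1 strain and no second condition, so values are described and no test between conditions was possible. The control library was not analysed here, and the peaks come from a mixture of all tissues of animals that carry a transgenic copy of the factor.

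The snRNAs are short non-coding RNAs that assemble with proteins into the spliceosome, which removes introns from pre-mRNA. U1 pairs with the 5′ splice site, U2 with the branch site, U4 and U6 enter as a pair, and U5 holds the exon ends. U6 then replaces U1 at the 5′ splice site and takes part in the catalytic core. In animals most snRNA genes are read by RNA polymerase II, those of U6 by RNA polymerase III, and both kinds share an upstream element bound by the snRNA-activating complex, with a TATA box added in U6 genes. SmY RNAs are nematode snRNAs linked to trans-splicing, in which a spliced leader is joined to an mRNA. HLH-12 belongs to the basic helix-loop-helix proteins, which bind the letters CANNTG (an E-box), and is needed for the distal tip cells to migrate as the gonad grows.

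Among named types, the annotation gives SmY alone (the smy genes) and does not say which genes encode U1, U2, U4, U5 or U6. The other genes were therefore grouped by transcribed sequence, at 70% identity or more, and each group is called by its gene of strongest pooled peak, or, in the B0213.21 group, which has no pooled peak, by 1 of its genes. Gene names follow RefSeq through the gene identifier, since Ensembl repeats some names over several copies and has the RefSeq name for 74 of the 99 genes. The W05B2.8 group had 24 genes of 93 to 108 bp, of which 22 held the letters ACAGAGA, known from U6. The T27E4.12 group had 13 genes of 156 to 170 bp, of which 12 held ACTTACCTG near the 5′ end, the letters with which U1 pairs with the 5′ splice site. It includes sup-6 and sup-39, named from suppressor mutations. The ZK897.3 group had 12 genes, 11 of them with GCCTTTTAC, known from the U5 loop. In the F10D2.13 group all 5 genes held CTTTGCGC, known from the 5′ end of U4. The F08G2.9 group had 19 genes, 18 of them with GTAGTA, known from the part of U2 that pairs with the branch site. Of the rest, 10 genes were smy genes, 5 formed the B0213.21 group and 11 belonged to no group of 5 or more genes.

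One transcribed sequence from each of 4 groups shows how they differ, read 5′ to 3′ from the WBcel235 genome. Capitals mark the letters named above and ATTTTTG, a form of the site to which the Sm protein ring binds on snRNAs other than U6. These are sup-6 of the T27E4.12 group (chrII:12944803-12944967, minus strand), F10D2.13 (chrV:7142717-7142858, minus strand), F11A5.14 of the F08G2.9 group (chrV:16225701-16225887, minus strand) and smy-10 (chrIV:13601636-13601725, plus strand).
sup-6: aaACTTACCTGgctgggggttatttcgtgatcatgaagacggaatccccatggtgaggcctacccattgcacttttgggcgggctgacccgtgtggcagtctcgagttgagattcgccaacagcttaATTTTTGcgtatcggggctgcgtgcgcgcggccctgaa
F10D2.13: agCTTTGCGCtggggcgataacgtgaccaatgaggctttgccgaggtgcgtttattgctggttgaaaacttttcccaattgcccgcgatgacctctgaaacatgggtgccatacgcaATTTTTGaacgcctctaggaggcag
F11A5.14: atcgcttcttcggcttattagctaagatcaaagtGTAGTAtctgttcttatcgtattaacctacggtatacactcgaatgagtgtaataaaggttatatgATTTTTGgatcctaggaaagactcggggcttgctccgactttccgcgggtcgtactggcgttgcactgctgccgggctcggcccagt
smy-10: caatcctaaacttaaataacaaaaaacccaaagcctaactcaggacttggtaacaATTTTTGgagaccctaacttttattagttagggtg

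The Sm letters stood in all genes of the T27E4.12, F10D2.13, F08G2.9 and smy groups, in 11 of 12 of the ZK897.3 group and in 0 of 24 of the W05B2.8 group. Conversely, 23 of 24 genes of the W05B2.8 group had 4 T in a row within 10 bases of the 3′ end, the kind of run at which RNA polymerase III stops. No gene of the T27E4.12, ZK897.3, F10D2.13 or F08G2.9 group had such a run there.

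A gene was counted as having a peak where a summit lay within 200 bp of it, and its signal is the highest among those peaks, in the units that the authors' peak caller wrote. The relaxed lists hold background regions along with peaks, per their file names. No nuclear peak of any list reached a −log10 q of 1.30, which stands for q = 0.05. The highest were 1.13 in the pooled and IDR lists, 1.25 in replicate 1 and 1.09 in replicate 2, and R07E5.16, among the weakest snRNA genes counted, had 0.0266 in the pooled list. The pooled relaxed list, called on both replicates together, gave a summit to 29 of 99 snRNA genes (29.3%), against 12.1% of all nuclear genes. The list that the authors thresholded on irreproducible discovery rate (IDR), which here holds pooled peaks of high signal, gave one to 8 of 99 (8.08%), against 0.998% of all nuclear genes. These counts rest on 27 separate pooled peaks and 6 separate IDR peaks, because 2 pairs of overlapping genes share a peak. The lists differ in length, with 6661 nuclear peaks in the pooled list, 230 in the IDR list, 19782 in replicate 1 and 22556 in replicate 2. In these longer lists of single replicates the snRNA share lay nearer the share of all genes. It was 40.4% (40 genes) against 26.6% in replicate 1, and 34.3% (34 genes) against 28.8% in replicate 2. Both replicate lists held a summit for 22 genes (22.2%), against 15.5% of all nuclear genes, and 47 snRNA genes had no summit in any list. The counts differed with the replicate used. With as many of the strongest peaks of replicate 2 alone as the pooled or IDR list holds, 18 and 3 snRNA genes had a summit. With replicate 1 alone 32 and 11 did. The share of all nuclear genes at these cuts was not computed, so whether it shifts alike is unknown.

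Among other classes of short RNA genes, 61.1% of SL2 RNA genes, 60.6% of tRNA genes, 27.2% of snoRNA genes, 10.7% of miRNA genes and 0 of 12 SL1 RNA genes had a pooled summit. The 15363 piRNA genes, a large part of all nuclear genes, had one in 1.74% of cases and an IDR peak in 0.0260%, and so lower the shares of all nuclear genes. For the IDR list the snRNA share of 8.08% lay between 0.766% for miRNA genes and 10.4% for snoRNA genes, with tRNA genes at 21.7%. Protein-coding genes had a pooled summit within 200 bp in 20.2% of cases, a share that their greater length enters, and in 3.51% of cases when their 5′ end alone was used. In the replicate lists the snRNA share was below that of coding genes taken over their whole length. It was 40.4% against 45.5% in replicate 1, 34.3% against 48.4% in replicate 2, and 22.2% against 29.5% for both lists. With the 5′ end of coding genes alone, their shares were 8.74%, 9.87% and 2.03%, below those of the snRNA genes. No difference between classes was tested.

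**Figure D1:**
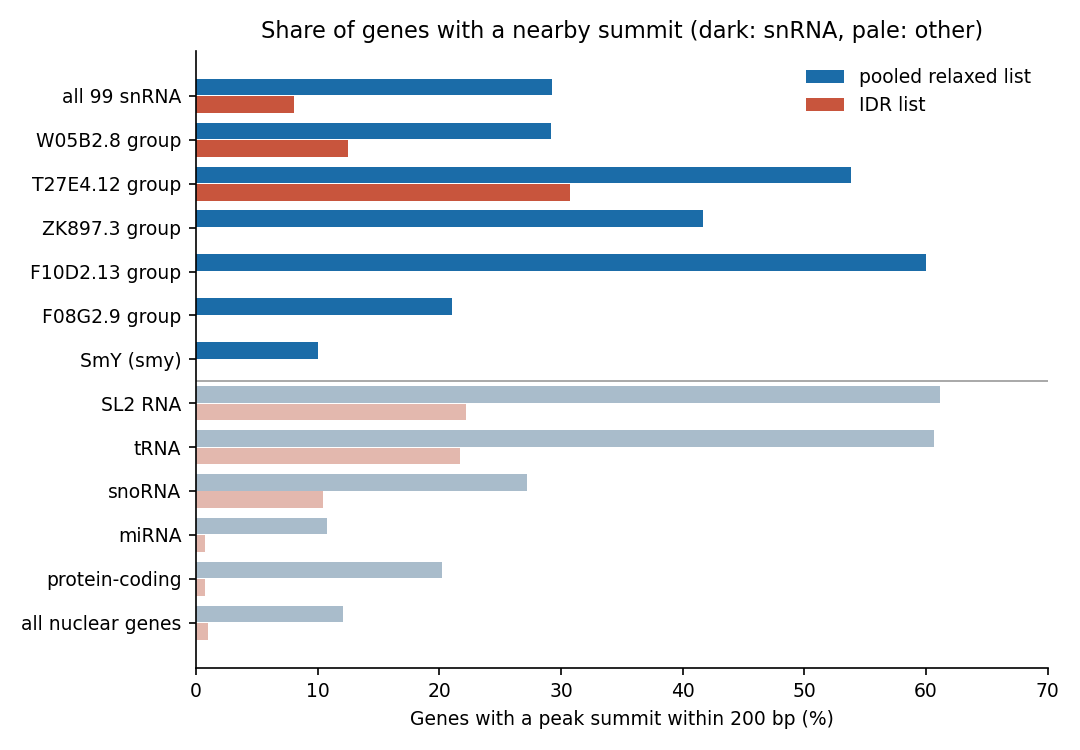
Share of genes (%, x axis) with a peak summit within 200 bp, in the pooled relaxed list (blue) and the IDR list (red), for the snRNA genes and their groups (dark) and for other gene classes (pale). The T27E4.12 group reached 53.8% and 30.8%, the tRNA genes 60.6% and 21.7%, and all nuclear genes 12.1% and 0.998%. Overlapping genes that share a peak, as T27E4.12 and T27E4.22 do, are each counted.

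Of the 8 snRNA genes with an IDR peak, 3 belonged to the W05B2.8 group, 4 to the T27E4.12 group, and the eighth is mir-1831, 22 bp long, which is annotated as snRNA and lies inside sup-39. No gene of the ZK897.3, F10D2.13, F08G2.9, smy or B0213.21 group had one. Over groups, 7 of 24 genes of the W05B2.8 group, 7 of 13 of the T27E4.12 group, 5 of 12 of the ZK897.3 group, 3 of 5 of the F10D2.13 group, 4 of 19 of the F08G2.9 group and 1 of 10 smy genes had a pooled summit. In the B0213.21 group 0 of 5 did. With replicate 1 alone the T27E4.12 count became 11 of 13, and with replicate 2 alone the ZK897.3 count became 2, the F10D2.13 count 1 and the smy count 0. Counting identical sequences once, 2 of 9 sequences of the W05B2.8 group had a pooled summit. Genes of a group share sequence and are not independent, so these counts stand side by side without a test.

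**Figure D2:**
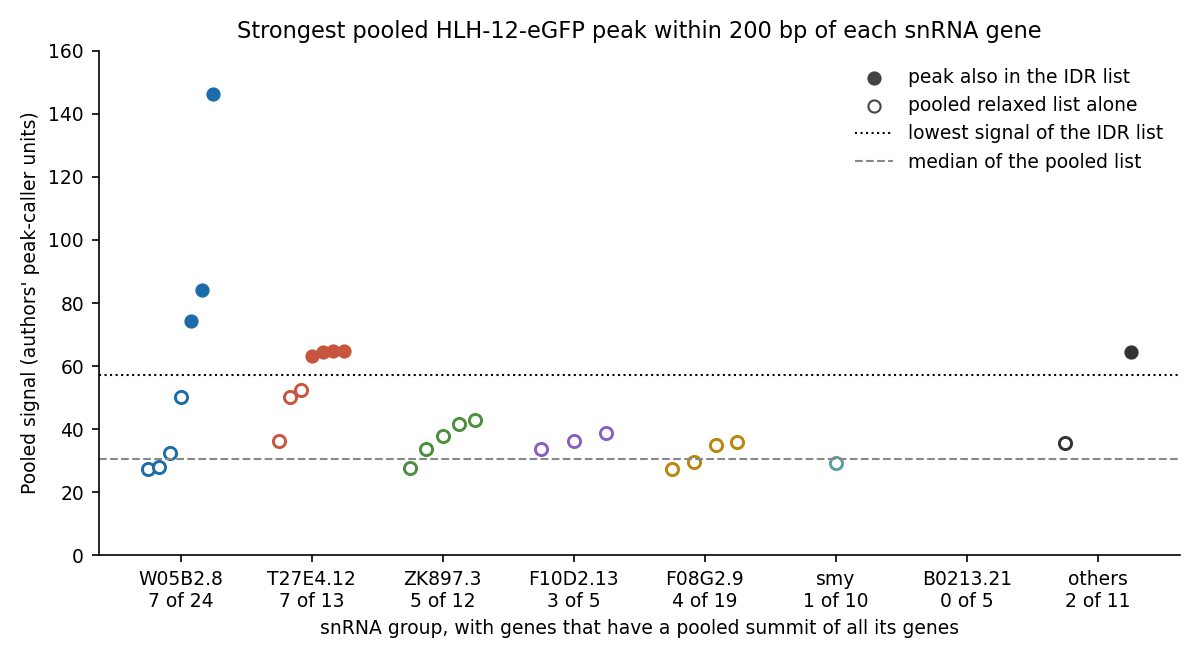
Pooled signal (y axis, authors' units) of the strongest peak within 200 bp of each snRNA gene with a pooled summit, 1 point per gene, by group. Filled points are also in the IDR list, whose lowest signal was 57.3 (dotted line). The dashed line is the median of the pooled list, 30.6. The 3 highest points, from 74.2 to 146.3, are of the W05B2.8 group, and the T27E4.12 genes with a filled point lie between 63.3 and 64.9.

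The median pooled signal of the 29 genes was 37.7, against 30.6 for all 6661 nuclear pooled peaks, and 23 of the 29 exceeded that list median. The 2 values are not of like kind. A gene takes the highest of its peaks, and the 29 genes hold 27 separate peaks, while the list median takes every peak once. By group, the median of genes with a pooled summit was 63.3 in the T27E4.12 group, 50.1 in the W05B2.8 group, 37.7 in the ZK897.3 group, 36.2 in the F10D2.13 group and 32.3 in the F08G2.9 group. By replicate mean signal, over genes in both replicate lists, the same 2 groups were highest. The medians were 34.2 in the W05B2.8 group (5 genes) and 31.7 in the T27E4.12 group (7 genes), then 19.7 in the ZK897.3 group (2 genes), 17.1 in the F10D2.13 group (3 genes) and 16.8 in the F08G2.9 group (4 genes). In replicate 2 alone the medians were 21.4 in the W05B2.8 group (7 genes) and 23.9 in the T27E4.12 group (7 genes). In replicate 1 alone they were 33.3 (7 genes) and 36.1 (11 genes), so the order of these groups was reversed in each. The median SD between replicates was 7.54, larger than the distance between the replicate mean medians of 34.2 and 31.7. It was also larger than the distances among the replicate mean medians of the ZK897.3, F10D2.13 and F08G2.9 groups. This SD includes a shift shared by most genes, since replicate 1 was higher at 19 of 22. It does not measure the uncertainty of a difference between groups, which was not tested.

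Within the W05B2.8 group the signal spanned a wide range. W05B2.8 itself (WBGene00014543, chrIII:10989679-10989780, plus strand) lies in an intron of dhc-4, a dynein heavy chain gene, on the same strand. Its signal was 75.2 in replicate 1 and 75.3 in replicate 2, a mean of 75.3 ± 0.0526 (SD, n = 2), and 146.3 in the pooled list, the peak of rank 8 among all nuclear pooled peaks. It ranked 14 among the peaks of replicate 1 and 5 among those of replicate 2. No other snRNA gene was above 45.5 in replicate 1 or above 39.7 in replicate 2.

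F54D8.7 (chrIII:5080798-5080898, minus strand) came next, with 84.2 in the pooled list and 45.5 and 39.7 in replicates 1 and 2 (mean 42.6 ± 4.12, SD, n = 2). It lies between genes, with its summit 829 bp from the 5′ end of cox-6A, which encodes a cytochrome c oxidase subunit. Y9C9A.111 (chrIV:4930954-4931055, plus strand), in an intron of Y9C9A.8, had 74.2 in the pooled list and 45.5 and 22.8 in the replicates (mean 34.2 ± 16.1, SD, n = 2). Unlike W05B2.8, its replicates stood far apart, replicate 1 being 2.00 times replicate 2. C28A5.7 followed with 50.1 in the pooled list and 33.3 and 19.8 in the replicates, and Y17G9A.85 with 32.6, 23.1 and 16.1. K09C6.12 (pooled 28.0) was in the replicate 1 list alone at 29.2, and R07E5.16 (pooled 27.5, the lowest of the group) in the replicate 2 list alone at 21.4. The last 2 lay close to the lowest signal of the pooled list, 26.3.

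The T27E4.12 group was more even. T27E4.12 (chrV:9091454-9091623, minus strand) and T27E4.22, a second annotated gene over the same bases, share 1 peak with 64.9 in the pooled list and 37.6 and 26.3 in replicates 1 and 2 (mean 31.9 ± 7.94, SD, n = 2). The sup-39 gene (chrII:6968394-6968558, minus strand), in an intron of C15F1.5, had 64.6 in the pooled list and 36.1 and 30.2 in the replicates. These 2 replicate values belong to summits 199 bp apart. For mir-1831, inside sup-39, the pooled and replicate 1 peaks were the same, while the strongest replicate 2 peak within 200 bp had 16.0. That peak had its summit at the same base as the replicate 1 peak. The sup-6 gene (chrII:12944803-12944967, minus strand), in an intron of F58G1.7, had 63.3 in the pooled list and 39.4 and 23.9 in the replicates. The pooled signals of T27E4.12, sup-39 and sup-6 lay closer together than the 2 replicates of any of them.

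F08H9.10 had the fourth highest replicate 1 signal of all snRNA genes, 45.0, with 12.8 in replicate 2 and 52.5 in the pooled list. Its summit lay 71 bp from the 5′ end of the coding gene F08H9.3. T08G5.11 had 38.8 in replicate 1, no summit in replicate 2 and 50.1 in the pooled list. H27M09.6, the lowest of the group with 36.4 in the pooled list, was alike in both replicates, at 20.9 and 18.8, and its summit lay 33 bp from the 5′ end of H27M09.5. Of the 6 genes without a pooled summit, 4 had a replicate 1 summit between 19.6 and 20.3, 1 of them F40G12.14 also a replicate 2 summit at 11.1, and C27H5.11 and T27E4.10 were in no list.

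Signals in the remaining groups stayed below every IDR peak. In the ZK897.3 group, ZK897.3, in an intron of unc-31, was highest with 43.0 in the pooled list and 25.1 and 13.5 in the replicates, and F42C5.12 lowest with 27.8 in the pooled list and 14.1 in replicate 1 alone. In the F10D2.13 group, F10D2.13 had 38.9 in the pooled list and 27.1 and 11.6 in the replicates, and C52E4.8 33.8, 22.7 and 11.5. In the F08G2.9 group, F08G2.9, in an exon of ins-37, had 36.1 in the pooled list and 24.2 and 13.2 in the replicates, and W04G5.11 had 27.3, 17.7 and 11.6. Replicate 2 signals of 11.5 and 11.6 lie near the lowest of that list, 10.1. Of the SmY genes, smy-10 alone had a pooled summit, with 29.4 and a replicate 1 signal of 22.6, and 3 others were in 1 replicate list each at 11.4 to 14.2. M163.13, in no group, had 35.6 in the pooled list and 37.7 in replicate 1 alone.

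Replicate 1 gave the higher signal at 19 of the 22 genes present in both lists, by a median factor of 1.66 (range 0.759 to 3.51). The whole lists differed in the same direction, with a median signal of 15.4 in replicate 1 and 13.0 in replicate 2, and any scaling of the signals for depth was not given in the sources used here. Summits of the replicates lay a median of 58 bp apart at these 22 genes, within 100 bp at 18 of them, and at most 199 bp apart. Pooled signal divided by the summed signals of both replicates had a median of 0.988 at the genes found in all 3 lists. A further 18 genes were in the replicate 1 list alone and 12 in the replicate 2 list alone.

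**Figure D3:**
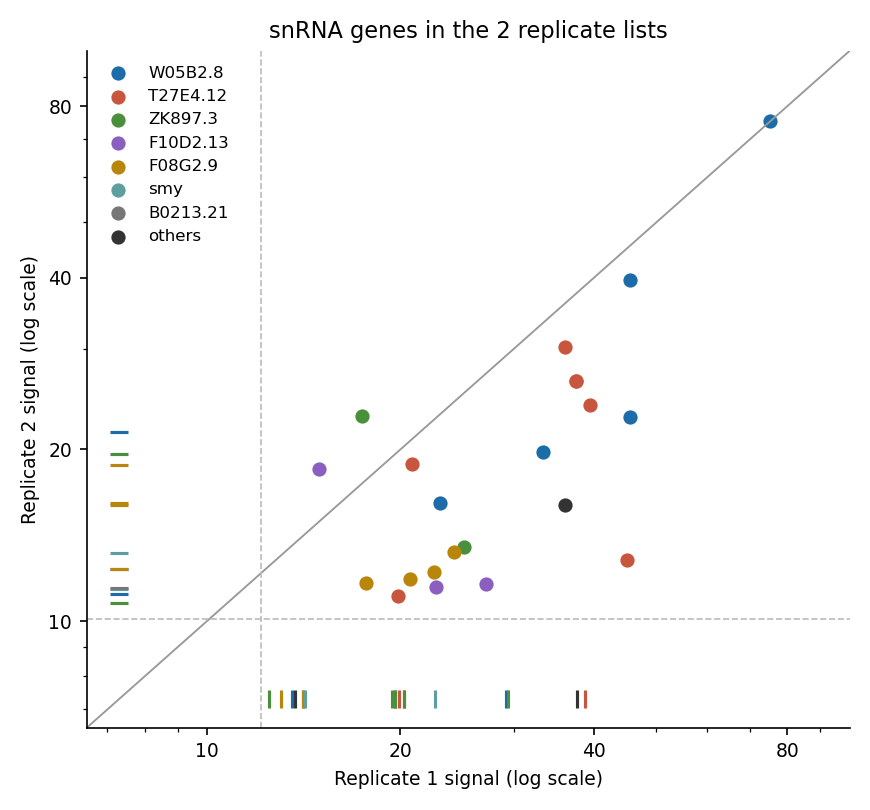
Signal of each snRNA gene in replicate 1 (x axis) and replicate 2 (y axis), both on log scales in the authors' units, coloured by group. The line marks equal signal, and the dashed lines mark the lowest signal of each list. Ticks along the lower and left edges are genes in 1 replicate list alone. Of 22 genes in both lists, 19 lie below the line, and W05B2.8 lies on it at 75.2 and 75.3.

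Summits did not lie mainly upstream of the genes. Of the 29 strongest pooled summits, 5 were upstream of the gene, 9 inside it and 15 downstream, and the median summit was 157 bp from the 5′ end in the direction of transcription. In the W05B2.8 group 5 of 7 summits were inside the gene, at a median of 57 bp from its 5′ end. In the F08G2.9 group all 4 were downstream, at a median of 242.5 bp. Of the pooled peaks, 99.985% have the same width of 436 bp, more than any snRNA gene is long. A peak can therefore cover a gene and its flanks, but one with a distant summit may cover only part of the gene. The peak of F42C5.12 (chrIV:7316732-7316853), for example, spans 7316810 to 7317245. Close to the edge of the 200 bp rule by their nearest summit, C52E4.8, C53D6.12 and F42C5.12 were counted at 103, 104 and 175 bp. T14B4.10 was not, at 227 bp with a signal of 27.9. Elsewhere the strongest summit was not always the nearest. The nearest had 32.7 against 50.1 at C28A5.7, 26.4 against 41.8 at F38E11.10 and 26.9 against 38.9 at F10D2.13. It had 51.5 against 64.6 at sup-39 and mir-1831, and 35.8 against 36.4 at H27M09.6. The other genes without a pooled summit were farther away, with a median of 4347 bp over all 70. Within 100 bp of the gene 26 genes had a pooled summit, and within 500 bp 33 did.

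**Figure D4:**
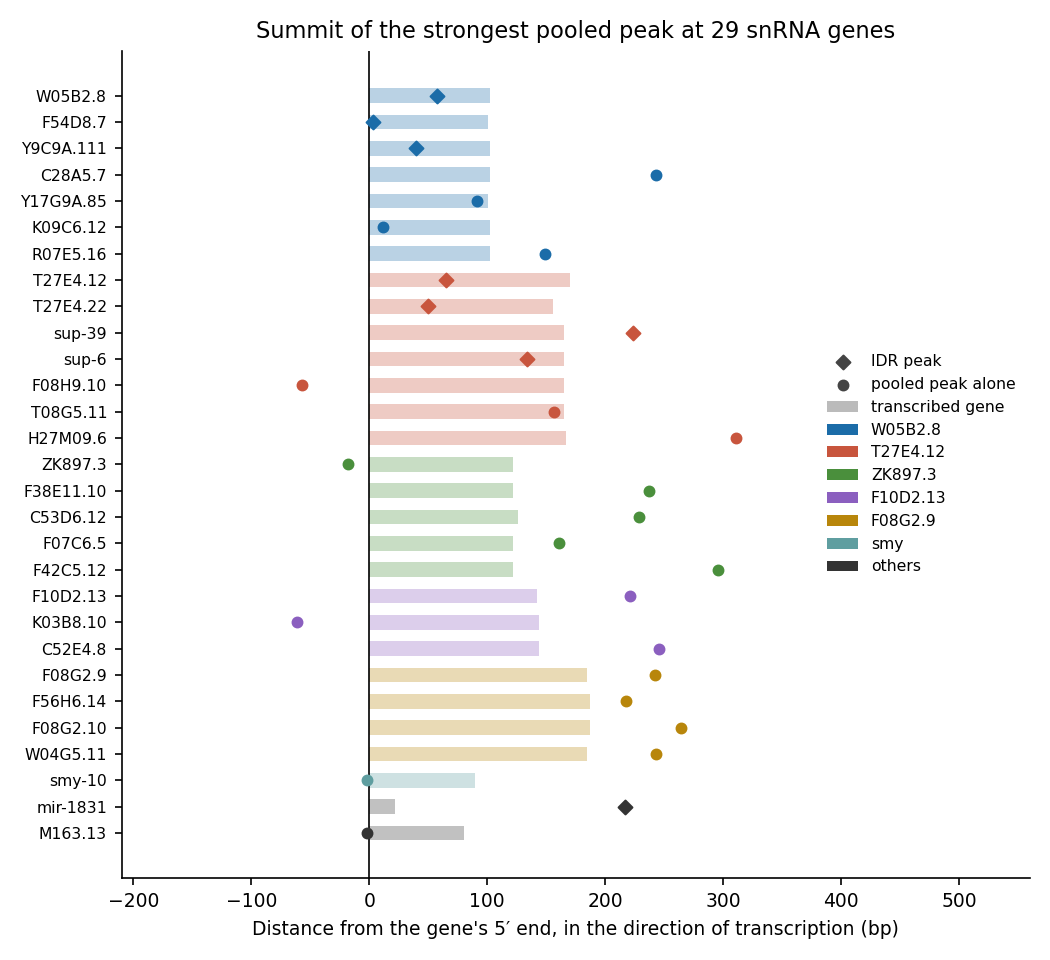
Position of the strongest pooled summit (points, with diamonds for IDR peaks) relative to the 5′ end of each of 29 snRNA genes, in bp along the direction of transcription. Pale bars span the transcribed gene, and colours give the group. Summits of the W05B2.8 group lie inside the gene in 5 of 7 cases, and 15 of all 29 summits lie downstream of the gene.

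Other genes near the summits were counted too. None of the 29 summits lay within 200 bp of a gene of biotype tRNA, snoRNA, rRNA or miRNA, and 4 lay that close to another snRNA gene (the T27E4.12 and T27E4.22 pair, and sup-39 with mir-1831, which is annotated as snRNA). The nearest 5′ end of a coding gene was a median of 787 bp away, with 20 summits within 1000 bp and 3 within 200 bp, at F08H9.10, H27M09.6 and F42C5.12. Leaving out every pooled peak that close to a coding 5′ end, a choice made after the data were seen, left 27 of the 29 genes with a summit and all 8 IDR counts.

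Many snRNA genes lay within coding genes. Of 39 intergenic snRNA genes 13 had a pooled summit, of 48 intronic ones 12, and of 12 that overlap an exon 4. Intronic snRNA genes on the same strand as their host had a pooled summit in 11 of 32 cases and an IDR peak in 5. Both counts include sup-39 and mir-1831, which share a peak. On the opposite strand 1 of 16 had a pooled summit and 0 an IDR peak. Of the exonic ones, 4 of 5 on the same strand and 0 of 7 on the opposite strand had a pooled summit. In the W05B2.8 group 4 of 10 intronic genes on the host strand and 0 of 10 on the opposite strand had one. Group and strand overlap here. Of the 7 exonic genes on the opposite strand, 4 are genes of the B0213.21 group, antisense to exons of cyp-34A cytochrome P450 genes. T10H4.16 and T10H4.17, in no group, are also among the 7 and lie antisense to cyp-34A1 and cyp-34A2. The remaining gene of the B0213.21 group, C41G6.17, is intergenic. ChIP-seq peaks carry no strand, and what separates these sets was not tested.

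Identical copies allow a comparison in which the transcribed sequence is held constant. The 102 bp sequence of W05B2.8 occurs, letter for letter, in 14 annotated genes. Of these, 5 had a pooled summit, W05B2.8 with 146.3, Y9C9A.111 with 74.2, C28A5.7 with 50.1, K09C6.12 with 28.0 and R07E5.16 with 27.5. Y17G9A.90 had a replicate 2 summit at 11.2 alone, and the other 8 were in no list. Those 8 are F54C8.8 and F54C8.9, in introns of F54C8.6, and K09B11.11 to K09B11.16, all 6 within 8062 bp in introns of mam-3.

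The copies differ in how uniquely reads could be placed. No stretch of 50 bases inside the gene is unique in the genome in any of the 14, so reads from within the gene could not be assigned to 1 copy by sequence at that length. In the gene with 200 bp on each side, 71.3% to 87.2% of 50-base stretches were unique for the 5 copies with a pooled summit, and 54.5% to 74.0% for the 8 copies in no list. Y17G9A.90, at 84.3%, was as unique as the copies with a peak. Among all 99 genes, 24 of 72 with at least 75% unique stretches had a pooled summit (33.3%), as did 5 of 27 below that share (18.5%). All 8 IDR genes were in the first set. The part of this in the signal was not tested, since read length and the handling of multiply mapping reads were not given in the sources used here. F32D1.12, F36A4.23 and B0205.15, from the same group and at least 88.5% unique, were in no list.

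**Figure D5:**
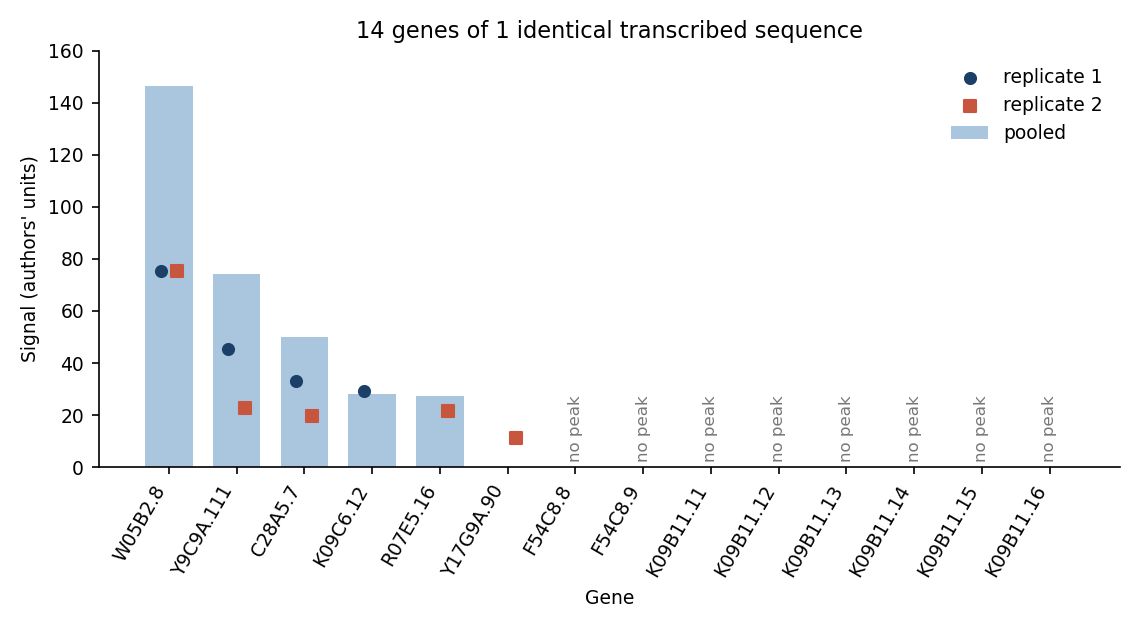
Signal (y axis, authors' units) at the 14 genes that share the 102 bp transcribed sequence of W05B2.8. Bars give the pooled signal, circles replicate 1 and squares replicate 2. The pooled signal ranges from 27.5 to 146.3 over 5 genes, and 8 genes have no peak in any list.

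The bases upstream show where genes of nearly 1 sequence differ. The 100 bases before each transcribed sequence are printed for the 3 IDR genes of the W05B2.8 group, W05B2.8 (chrIII:10989579-10989678, plus strand), F54D8.7 (chrIII:5080899-5080998, minus strand) and Y9C9A.111 (chrIV:4930854-4930953, plus strand), and for 2 genes of that group with no peak in any list, K09B11.12 (chrIV:13438997-13439096, plus strand) and F54C8.8 (chrIII:9445811-9445910, plus strand). Capitals mark matches on either strand to the string GGAACC, to the string ATGTC, or to TATATAA, and overlapping matches run together. K09B11.12 is the copy in mam-3 with the most unique flanks.
W05B2.8: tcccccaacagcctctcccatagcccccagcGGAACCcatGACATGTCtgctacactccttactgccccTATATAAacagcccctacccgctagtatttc
F54D8.7: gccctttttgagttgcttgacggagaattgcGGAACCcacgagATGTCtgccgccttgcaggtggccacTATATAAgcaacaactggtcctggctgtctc
Y9C9A.111: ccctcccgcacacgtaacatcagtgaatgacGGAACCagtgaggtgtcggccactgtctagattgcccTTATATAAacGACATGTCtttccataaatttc
K09B11.12: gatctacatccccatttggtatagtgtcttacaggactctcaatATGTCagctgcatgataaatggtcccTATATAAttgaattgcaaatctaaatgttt
F54C8.8: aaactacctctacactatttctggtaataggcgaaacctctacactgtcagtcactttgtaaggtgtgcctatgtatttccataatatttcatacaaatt

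From the T27E4.12 group the same window is printed for T27E4.12 (chrV:9091624-9091723, minus strand), sup-39 (chrII:6968559-6968658, minus strand) and sup-6 (chrII:12944968-12945067, minus strand), each with an IDR peak, and for C27H5.11 (chrII:7171742-7171841, plus strand), which was in no list.
T27E4.12: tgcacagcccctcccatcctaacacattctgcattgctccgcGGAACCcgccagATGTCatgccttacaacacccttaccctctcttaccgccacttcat
sup-39: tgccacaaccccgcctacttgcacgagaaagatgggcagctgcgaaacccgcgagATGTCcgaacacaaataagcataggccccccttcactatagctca
sup-6: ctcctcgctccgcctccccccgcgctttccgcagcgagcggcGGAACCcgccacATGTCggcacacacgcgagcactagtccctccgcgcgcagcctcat
C27H5.11: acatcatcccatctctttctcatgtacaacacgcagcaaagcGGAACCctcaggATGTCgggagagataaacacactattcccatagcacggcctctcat

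The letters were chosen after these windows and their signals had been seen, so the counts describe them and carry no test. GGAACC, searched on both strands like the others, stood in 13 of 29 windows of genes with a pooled summit (44.8%), in 14 of 70 without one and in 1.19% of the same windows of protein-coding genes. ATGTC stood in 18 of 29 with a pooled summit and 18 of 70 without, and in 8 of the 8 IDR genes, against 11.5% of protein-coding windows. Overlapping genes have overlapping windows and were each counted, and the 8 IDR genes hold 6 separate peaks. In Y9C9A.111 the ATGTC match lies after TATATAA, unlike in W05B2.8 and F54D8.7. AACCCG, which can overlap GGAACC, was the commonest string of 6 letters on the gene strand, in 33 of 99 windows. On both strands it was in 16 of 29 genes with a pooled summit, 17 of 70 without, and 1.61% of coding windows. It marked group as much as peak, since all 12 genes of the ZK897.3 group held it, 5 with a pooled summit and 7 without.

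TATATAA, the letters of a TATA box, stood in 18 of all 99 windows, 15 of them in the W05B2.8 group, against 4.05% of protein-coding windows. In that group it stood before 7 of 7 genes with a pooled summit and 8 of 17 without. GGAACC stood before 4 of 7 with a pooled summit, all 3 IDR genes included, and 2 of 17 without. The 6 K09B11 copies, in no list, all had TATATAA and none had GGAACC. In the T27E4.12 group GGAACC was in 5 of 7 windows with a pooled summit and 3 of 6 without, ATGTC in 7 of 7 and 5 of 6, and AACCCG in 6 of 7 and 2 of 6. AACCCG in the W05B2.8 group was in 3 of 7 and 2 of 17. C27H5.11, in no list, had the first 2 of these strings, with 88.3% unique 50-base stretches. In the F08G2.9 group GGAACC was in 0 of 19 windows although 4 of the genes had a pooled summit.

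E-boxes were counted at the summits and upstream of the genes. CANNTG lay within 50 bp of the summit in 6 of the 27 pooled peaks at snRNA genes (22.2%), against 32.6% of all nuclear pooled peaks, and in 1 of 6 IDR peaks at snRNA genes (16.7%), against 31.7% of all nuclear IDR peaks. CACATG, 1 form of the E-box, was in 0 of 27 and 0 of 6 of these peaks, against 3.42% and 10.0%. A count of 0 in so few peaks leaves little room for comparison. In the upstream windows CANNTG stood in 13 of 29 genes with a pooled summit (44.8%) and 24 of 70 without (34.3%), and in 6 of the 8 IDR genes, against 29.3% of protein-coding windows. Both pairs of overlapping genes, T27E4.12 with T27E4.22 and sup-39 with mir-1831, are among those 6, and their windows overlap.

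By chromosome, pooled summits were found at 3 of 12 snRNA genes on chromosome I, 5 of 13 on II, 4 of 7 on III, 8 of 36 on IV, 8 of 28 on V and 1 of 3 on X. IDR genes lay on II (3 genes), III (2), IV (1) and V (2), and none on I or X. The genes on IV include the 6 K09B11 copies, of which 0 had a pooled summit. The share of all genes on each chromosome was not computed, so these counts show no difference between chromosomes.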

How the data were processed

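Peak lists of the 2 replicates, of both replicates pooled and of the IDR step were used in ce11 coordinates; the ce10 lists were not used here. The authors deposited, for every peak, a signal in their peak caller's own units and a −log10 q value, used here for description alone. A control entered the calling of the relaxed lists, per the file listings. Aligner, peak caller, read length, depth scaling and the handling of multiply mapping reads were not given in the sources used here, and read depth is unknown. Transcribed sequences of the other groups are not reported here. Files were checked for columns of unknown samples, of which there were 0.

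Genes came from Ensembl release 115 (WBcel235), names from RefSeq through gene identifiers. Summits within 200 bp of a gene were assigned to it by a Python 3.11.15 script (NumPy 2.4.6, pandas 2.3.3), checked on simulated peaks. Groups joined genes at a global alignment identity of at least 0.7 (Biopython 1.88), with at least 5 genes. Unique stretches were counted with 50 bases over both strands of the genome. With 1 group of 2 replicates no test was run. Named are all genes with an IDR peak, the highest and lowest gene of each group and the 5 highest in each replicate list; genes at the distance edge, in the identical set and beside the strand and sequence counts were named after their values were seen. The genes, groups and letters were chosen with earlier results of these data known. Alternatives were distances of 100 and 500 bp, overlap of peak and gene, 1 count per shared peak or identical sequence, the stronger 50% of pooled peaks, and each replicate alone through its strongest 6661 or 230 nuclear peaks.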

Additional observations from a re-analysis of the deposited data

How the results depend on the processing

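Of 100 recomputed values, 87 stayed within 1.5 times the count, or within 1 replicate SD of the median, and 13 did not. The number of snRNA genes with a pooled summit ran from 18 to 32 with 1 replicate left out, and the number with an IDR peak from 3 to 11. The share of all nuclear genes was not computed with a replicate left out. By group, leaving out 1 replicate gave 5 to 11 pooled counts in the T27E4.12 group, 2 to 6 in the ZK897.3 group, 1 to 2 in the F10D2.13 group and 0 to 1 in the smy group. In the W05B2.8 group the median replicate signal ran from 21.4 to 33.3 with 1 replicate left out and was 26.5 with a distance of 500 bp. Counting identical sequences once left 2 of 9 sequences of the W05B2.8 group with a pooled summit. A distance of 100 bp left 3 genes in the ZK897.3 group, and one of 500 bp gave 2 smy genes. With the stronger 50% of pooled peaks, 2 genes of the F08G2.9 group and 0 smy genes had a summit. The cause was not tested. At identities of 0.65, 0.75 and 0.8, chosen after the data were seen, the T27E4.12, ZK897.3, F10D2.13 and F08G2.9 groups kept their sizes, while the W05B2.8 group had 24, 24 and 23 genes. The B0213.21 group had 7 genes at 0.65 and was no group of 5 or more at 0.75 and 0.8. No paired analysis was possible because all samples belong to 1 group. With 2 replicates, fixed-width peaks and unknown depth, a gene without a peak was not shown to lack binding.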
